A study of Mus musculus with 10 samples.

Results

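The collagen genes are the genes for the chains of the collagen triple helix. They were taken by name: a protein-coding gene of the count table was a member if its Ensembl ID had a symbol of the form Col, type number, a, chain number in the mouse GENCODE annotation. This rule used no measured value and gave 44 members of 55416 genes. Between Musashi IP and IgG, 41 of the 44 had enough counts to be tested. The other 3 were Col9a1, Col6a5 and Col6a4, which had 2 to 12, 1 to 7 and 0 to 4 counts per library.

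Musashi1 and Musashi2 bind short motifs in mRNAs and control their translation, and the experiment asked which pituitary RNAs they hold. Pituitaries came from control, sighted FVB mice of the strain FVB.129P2-Pde6b+Tyrc-ch/Ant, aged 8 to 10 weeks, pooled in sets of 6 into a lysate. Each lysate was divided between a mixture of antibodies to Musashi1 and Musashi2 (Musashi IP) and non-specific rabbit IgG, so RNA held by either protein cannot be told apart. The sample descriptions give 6 occasions of immunoprecipitation, 3 per sex, while the data hold 5 lysates and 10 libraries. Lysates 2, 5 and 6 were from females and lysates 3 and 7 from males.

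Library totals ran from 6.67 to 13 M counts, at 7.62 ± 1.08 M in IgG and 10.4 ± 1.89 M in Musashi IP (mean ± SD, n = 5 each). Levels are CPM, counts scaled to library size with TMM factors. In the shallowest library 1 count was worth 0.150 CPM before these factors and 0.135 CPM with them. Among 10 markers of hormone-producing pituitary cells only Lhb was at 0 counts in every library, and the others summed to 13200 to 51500 CPM in IgG. The reason for the 0 of Lhb was not tested, and the counting program and annotation were not given. Markers of mural cells and fibroblasts (9 genes) and of endothelium (8 genes), the usual makers of collagen, were all detected. One library stood apart in these: IgG of lysate 2 had 513.7 CPM of mural and fibroblast markers and 394 CPM of endothelial markers, against 97.5 to 153.5 and 89.6 to 160.9 CPM in the other IgG libraries. Fold changes of several members are also given without lysate 2.

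Collagens are trimers of chains whose sequence repeats glycine at regular steps, as glycine and then a pair of other residues. Fibrillar collagens form the cables of the stroma, type IV collagen forms the sheet of the basement membrane, and smaller classes decorate fibrils, form filaments or span the cell membrane. In the pituitary, collagens lie in the capsule, around the capillaries and in the basement membranes that bound the cords of hormone cells.

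The glycine repeat is what the members share in sequence. In the coding sequence of every tested member, GGN codons (glycine) stood 3 codons apart for at least 23 steps without a break, and for up to 344 steps in Col3a1. Of 14202 protein-coding genes tested, 46 had such a run of at least 20 steps, and the 41 collagen genes were among them. The stretches below, from the longest run in each of the 3 members that passed the test between Musashi IP and IgG, show the repeat with the GGN codons in capitals. They are from GENCODE transcripts on GRCm38 (the counts were made on GRCm39), at chr11:51517214-51517243 (+ strand), chr10:34394928-34394957 (+ strand) and chr1:82491550-82491579 (- strand), each within 1 exon.
Col23a1 coding sequence: GGAcggcgtGGCaagcctGGAcgaagaGGC
Col10a1 coding sequence: GGAaaacaaGGCttgccaGGTttgaggGGA
Col4a4 coding sequence: GGTgctcccGGGatcccaGGAcaaccgGGA

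The collagen transcripts were long and GC-rich. Median transcript length was 5595 nt against 3046 nt over tested protein-coding genes, and median GC content 56.7% against 50.5%. Their 3' UTRs were not unusual, with a median of 1049 nt against 1221 nt and 44.6% GC against 44.5%. The Musashi motif was searched on the sense strand of the longest annotated 3' UTR, as GTAGT or ATAGT and as the forms with 1 or 2 further T after the first base (6 words, overlapping matches counted). At least 1 motif was found in 30 of the 41 tested members (73.2%) and in 71.2% of 14098 tested protein-coding genes with a 3' UTR. Motifs were at 1.49 per kb of collagen 3' UTR and 1.98 per kb of all of these UTRs.

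The most motifs, 12 each, were in the 3' UTRs of Col4a3 (3175 nt) and Col25a1 (4185 nt). Col23a1, the member recovered most with the Musashi antibodies, had 5 in 3852 nt, and 76.5% of 3' UTRs within 20% of that length had as many or more. All 5 sites of Col23a1 and the first 3 of Col4a3 and Col25a1 are shown with the motif in capitals, since these are the member that rose and the pair with the most motifs. The positions are own matches to GENCODE transcripts on GRCm38, all on the + strand. Those of Col23a1 lie between chr11:51581770-51581798 and chr11:51583380-51583408, those of Col4a3 between chr1:82718995-82719023 and chr1:82719037-82719066, and those of Col25a1 between chr3:130596252-130596280 and chr3:130596753-130596781.
Col23a1 site 1: tgaactcactatGTAGTtcaggatgacct
Col23a1 site 2: ctccaagaccaaATAGTaatcacggtcct
Col23a1 site 3: aagaaaacagatGTAGTggaccaagatga
Col23a1 site 4: ggctcacagtgcATAGTtatctgcttaga
Col23a1 site 5: tggacacgcccaGTAGTgaagctgctcac
Col4a3 site 1: aaccttaaagatGTAGTagtgcaaagttt
Col4a3 site 2: cttaaagatgtaGTAGTgcaaagtttcac
Col4a3 site 3: agcatttcattcGTTAGTctgtgatgtggg
Col25a1 site 1: gagaagcaaaatGTAGTttccaatttttc
Col25a1 site 2: ggtttttaaacaATAGTtttagaaaagct
Col25a1 site 3: aaactcacctacATAGTcttagcctggac

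The first comparison asked which collagen mRNAs were recovered more or less with the Musashi antibodies than with IgG. One collagen gene rose, Col23a1, and 2 fell, Col10a1 and Col4a4, of 41 tested (edgeR quasi-likelihood test with the lysate as a block, Benjamini-Hochberg adjusted p under 0.05). Over all 20550 genes tested, 18.5% were higher in Musashi IP and 8.4% lower, and over tested protein-coding genes 25.7% were higher and 4.01% lower. The collagen shares were 2.44% higher and 4.88% lower. The members' median log2 fold change was -0.15, beside -0.066 over all tested genes and 0.089 over tested protein-coding genes, and 30 of the 41 were below 0.

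The number of members that fell depended on the scaling and on the lysates, while Col23a1 rose in all 22 settings tried. Some of these settings are near repeats of others, so tallies over them are not independent counts. With library totals in place of TMM, which moved the median of all genes to -0.24, 1 member was higher and 10 were lower. With protein-coding genes alone the numbers were 1 and 11, and with a correction for transcript length and GC content also 1 and 11. Over all genes tested, 3153 were higher and 4068 lower of 20550 with library totals. The numbers were 2924 and 2973 of 14202 with protein-coding genes alone, and 3399 and 1948 of 20550 with the correction. None was lower without the lysate block, without lysate 5 or without lysate 7, 1 was lower without lysate 2, and 9 without lysate 3. Over all genes tested, the numbers lower in these fits were 176 of 20550, 187 of 20669, 597 of 20548, 1168 of 20543 and 2101 of 20714. Between 1676 and 4651 were higher.

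**Figure D1:**
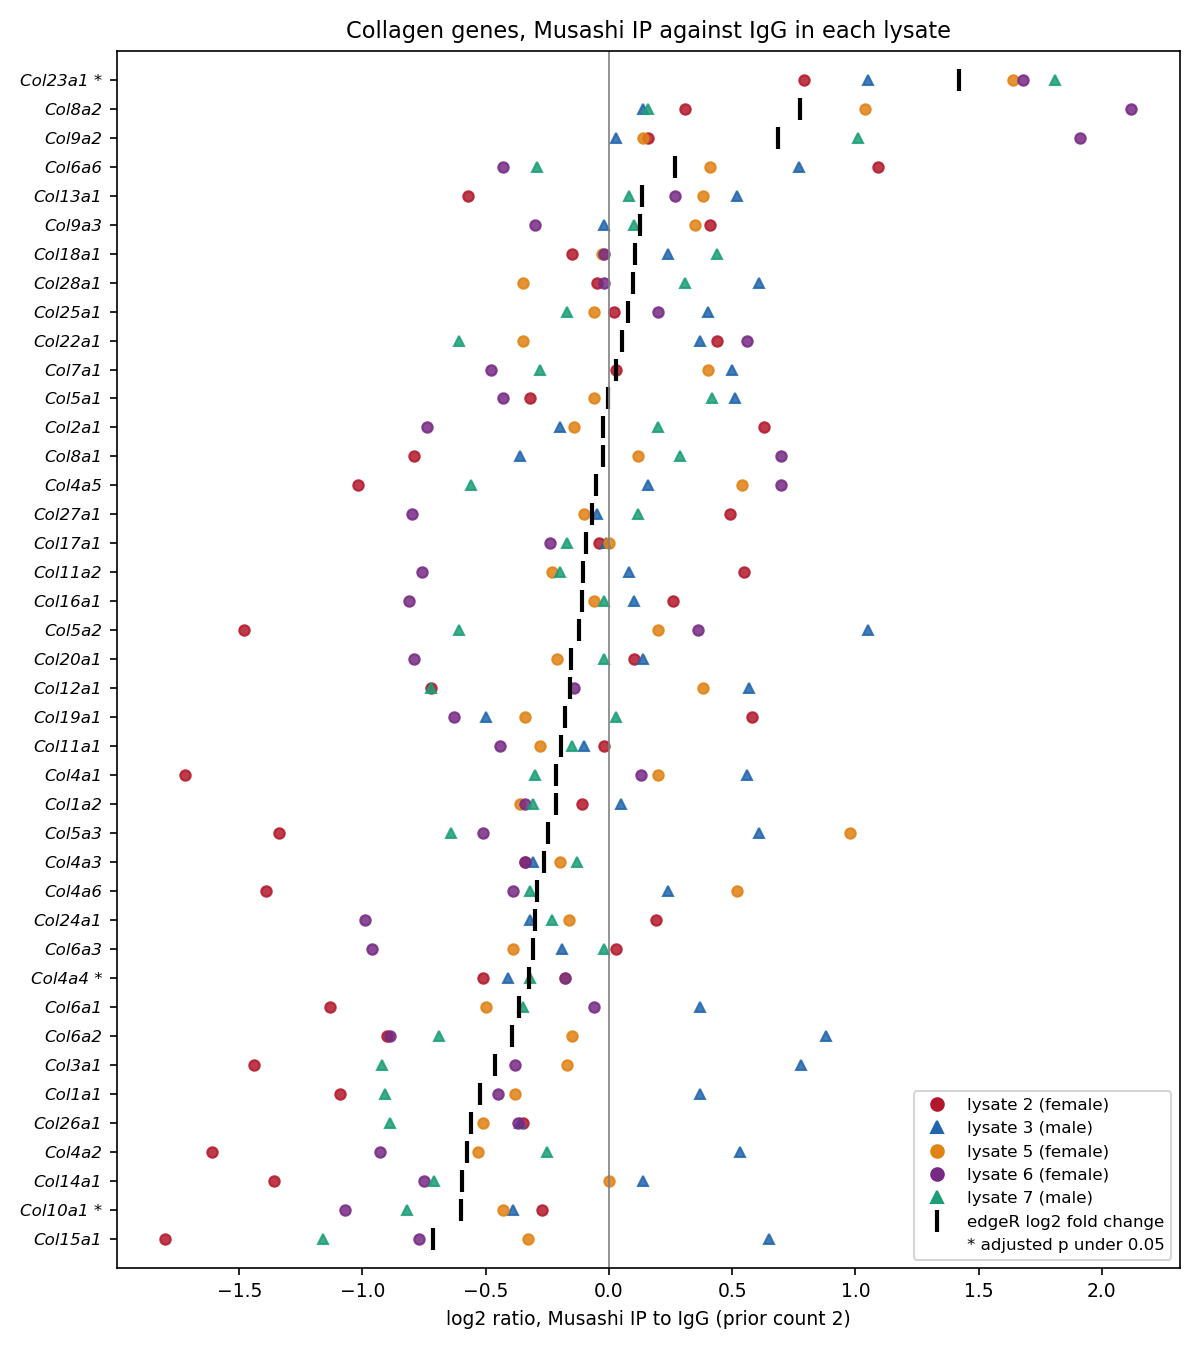
Log2 ratio of Musashi IP to IgG (x axis) for the 41 tested collagen genes (y axis) in each of the 5 lysates (circles female, triangles male), with the edgeR log2 fold change as a black bar. Col23a1 lies right of 0 in every lysate, from 0.79 to 1.81, and 33 of the 41 genes have lysates on both sides of 0.

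Among the transmembrane collagens, which sit in the plasma membrane and can be shed from it, Col23a1 (ENSMUSG00000063564) was at 7.60, 7.55, 7.0, 4.87 and 6.95 CPM in IgG of lysates 2, 3, 5, 6 and 7. In Musashi IP it was at 13.3, 15.8, 22.4, 16.1 and 25.0 CPM. The groups did not overlap, and the Musashi IP library was higher in all 5 lysates, least in lysate 2. The log2 fold change was 1.42 ± 0.179 (SE), or 2.68-fold, with an edgeR adjusted p of 0.00336, and between 1.12 and 1.63 across the settings. These levels rest on 42 to 290 counts per library.

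The other transmembrane members did not pass. Col25a1, a collagen of neurons that is found in amyloid plaques, carries 12 motifs in its 3' UTR and was among the abundant members. It was at 104, 48.1, 90.3, 74.9 and 65.6 CPM in IgG and at 105, 63.5, 86.4, 86.2 and 58.4 CPM in Musashi IP, in the same lysate order. The groups overlapped over nearly their whole range, with a log2 fold change of 0.08 ± 0.108. Col13a1, a collagen of neuromuscular junctions, was at 0.14 ± 0.176 and Col17a1, a hemidesmosome collagen, at -0.09 ± 0.124 on the log2 scale.

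Among the short-chain collagens of types VIII and X, Col10a1 (ENSMUSG00000039462), known as the collagen of hypertrophic cartilage, was at 20.2, 31.3, 25.3, 25.3 and 31.9 CPM in IgG of lysates 2, 3, 5, 6 and 7. In Musashi IP it was at 16.7, 23.9, 18.7, 11.9 and 17.9 CPM. It was lower in all 5 lysates, although the groups overlapped, since lysate 2 had the lowest IgG value. The log2 fold change was -0.60 ± 0.141 (edgeR adjusted p = 0.0164), and the call was lost without the lysate block, without lysate 5 and without lysate 7. Col10a1 has no motif in its 3' UTR and lies opposite to Nt5dc1, with which it shares 18 exonic bases. Nt5dc1 was also lower, at -0.38 ± 0.117 (edgeR adjusted p = 0.0430), and reads of the 2 genes cannot be told apart where strand was not used in counting. Of the chondrocyte and bone markers, Matn1 was at 0 in every library and 3 of 8 had enough counts to be tested.

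Col8a2, a collagen of the corneal basement membrane, was higher in all 5 lysates without passing the test. Its levels were 3.13, 1.75, 1.04, 1.16 and 3.67 CPM in IgG and 3.95, 1.95, 2.38, 5.78 and 4.14 CPM in Musashi IP. The excess came mostly from lysates 5 and 6, and the log2 fold change was 0.78 ± 0.324 (edgeR adjusted p = 0.103; 0.035 with no filter on low counts). Its partner Col8a1 had -0.02 ± 0.229.

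All 6 type IV chains had a fold change below 0, and 1 of them, Col4a4, fell. Col4a4 (ENSMUSG00000067158), a chain of the alpha-3, alpha-4, alpha-5 network of specialised basement membranes such as the kidney glomerulus, was at 24.3, 62.9, 22.4, 22.9 and 56.4 CPM in IgG. In Musashi IP it was at 17.0, 47.2, 19.8, 20.1 and 45.1 CPM. It was lower in all 5 lysates, with log2 ratios of -0.51, -0.41, -0.18, -0.18 and -0.32, although the 2 male lysates held more of it than the females in both groups. The log2 fold change was -0.32 ± 0.101 (edgeR adjusted p = 0.0430), and 13 of the 22 settings called it, DESeq2 not among them.

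Col4a3, whose gene lies head to head with Col4a4 and whose chain joins the same network, moved in parallel. It was at 19.1, 66.7, 19.1, 13.6 and 61.9 CPM in IgG and at 15.1, 53.7, 16.5, 10.7 and 56.5 CPM in Musashi IP. It too was lower in all 5 lysates, at -0.26 ± 0.0971, but did not pass (edgeR adjusted p = 0.0723). Its 12 motifs were more than most: 8.34% of 3' UTRs within 20% of its length had as many or more. It shares 563 exonic bases with the opposite-strand gene C430014B12Rik.

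Col4a1 and Col4a2, the chains of the common vascular basement membrane, varied widely between lysates instead. Col4a1 was at 253, 48.0, 48.5, 108 and 56.8 CPM in IgG and at 76.5, 70.7, 55.7, 119 and 46.2 CPM in Musashi IP. The IgG library of lysate 2 was the highest by far, and its log2 ratio of -1.72 stood beside 0.56 in lysate 3. Neither chain passed, with -0.21 ± 0.288 for Col4a1 and -0.57 ± 0.263 for Col4a2, and Col4a2 was called in 6 of the 22 settings. Col4a5 and Col4a6 were at -0.05 ± 0.251 and -0.29 ± 0.268.

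None of the 11 fibrillar collagens passed in edgeR (2 at an unadjusted p under 0.05; none in DESeq2 or limma-voom), and all 11 fold changes were below 0, from -0.52 for Col1a1 to -0.002 for Col5a1. Col1a2, the alpha-2 chain of type I collagen and the most abundant member, was at 820.5, 199.9, 521, 562 and 262 CPM in IgG of lysates 2, 3, 5, 6 and 7. In Musashi IP it was at 761, 206, 406, 444 and 210.3 CPM. It was lower in 4 of 5 lysates with wholly overlapping groups, at -0.22 ± 0.092 (edgeR adjusted p = 0.109), and passed in 6 of 22 settings.

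The next fibrillar collagens by level were Col27a1 and Col24a1, known from the developing skeleton, and Col11a1, a thin-fibril collagen of cartilage and eye. Col27a1 was at 175, 81.9, 121, 177 and 65.8 CPM in IgG and 245, 79.4, 112, 101 and 71.4 CPM in Musashi IP, higher in lysate 2 and lower in lysate 6. Col24a1 was at 86.6, 63.1, 60.7, 98.4 and 65.4 CPM in IgG and 98.5, 50.5, 54.3, 49.6 and 55.9 CPM in Musashi IP. Col11a1 was at 62.6, 70.5, 52.9, 65.9 and 64.4 CPM in IgG and 61.9, 65.8, 43.6, 48.4 and 58.2 CPM in Musashi IP, lower in all 5 lysates. Their log2 fold changes were -0.07 ± 0.165, -0.30 ± 0.156 and -0.20 ± 0.0998, and none passed.

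The other fibrillar members were Col3a1 at -0.46 ± 0.278, Col5a3 at -0.25 ± 0.328, Col5a2 at -0.12 ± 0.337, Col11a2 at -0.11 ± 0.178 and Col2a1 at -0.02 ± 0.202 on the log2 scale. Col1a1 was at -0.52 ± 0.212 (edgeR adjusted p = 0.0947) and was lower in every lysate but lysate 3.

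The 8 tested fibril-associated collagens, which link fibrils to the matrix around them, gave no call in edgeR, DESeq2 or limma-voom (1 at an unadjusted p under 0.05). Col9a2 was higher in all 5 lysates, at 2.01, 2.97, 2.33, 0.928 and 2.49 CPM in IgG and 2.27, 3.04, 2.59, 4.11 and 5.26 CPM in Musashi IP. The excess was in lysates 6 and 7, and the other 3 lysates differed by at most 0.16 on the log2 scale. Its log2 fold change was 0.69 ± 0.307 (edgeR adjusted p = 0.122).

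Col14a1, a fibril-associated collagen of skin and tendon, was at 16.9, 3.91, 6.36, 10.7 and 7.47 CPM in IgG and 6.46, 4.34, 6.37, 6.27 and 4.48 CPM in Musashi IP. Its log2 fold change was -0.60 ± 0.229 (edgeR adjusted p = 0.0808), with the lowest ratio in lysate 2. The remaining fibril-associated members lay between -0.18 (Col19a1) and 0.13 (Col9a3), with Col12a1 at -0.16, Col20a1 at -0.15, Col16a1 at -0.11 and Col22a1 at 0.05.

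Of the multiplexins, basement membrane collagens whose ends can be cleaved to anti-angiogenic fragments, Col15a1 had the lowest fold change of all members and did not pass. It was at 56.5, 14.8, 11, 16.7 and 19.1 CPM in IgG and at 16.0, 23.3, 8.75, 9.70 and 8.45 CPM in Musashi IP. It was lower in 4 lysates and higher in lysate 3, at -0.71 ± 0.31 (edgeR adjusted p = 0.114), although DESeq2 called it. Col18a1, the source of endostatin, was at 0.10 ± 0.12.

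The beaded-filament chains Col6a1, Col6a2 and Col6a3 were at -0.36 ± 0.215, -0.40 ± 0.266 and -0.31 ± 0.153, and Col6a6 at 0.27 ± 0.272. Col7a1, the anchoring-fibril collagen of skin, was at 0.03 ± 0.187. Col28a1 was at 0.10 ± 0.19, and Col26a1, a short collagen, at -0.56 ± 0.211 with lower values in all 5 lysates (edgeR adjusted p = 0.0777). In all, 3 tested members were higher in every lysate and 5 lower, which is 7.32% and 12.2% of the 41, beside 22.4% and 18.6% of all tested genes.

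**Figure D2:**
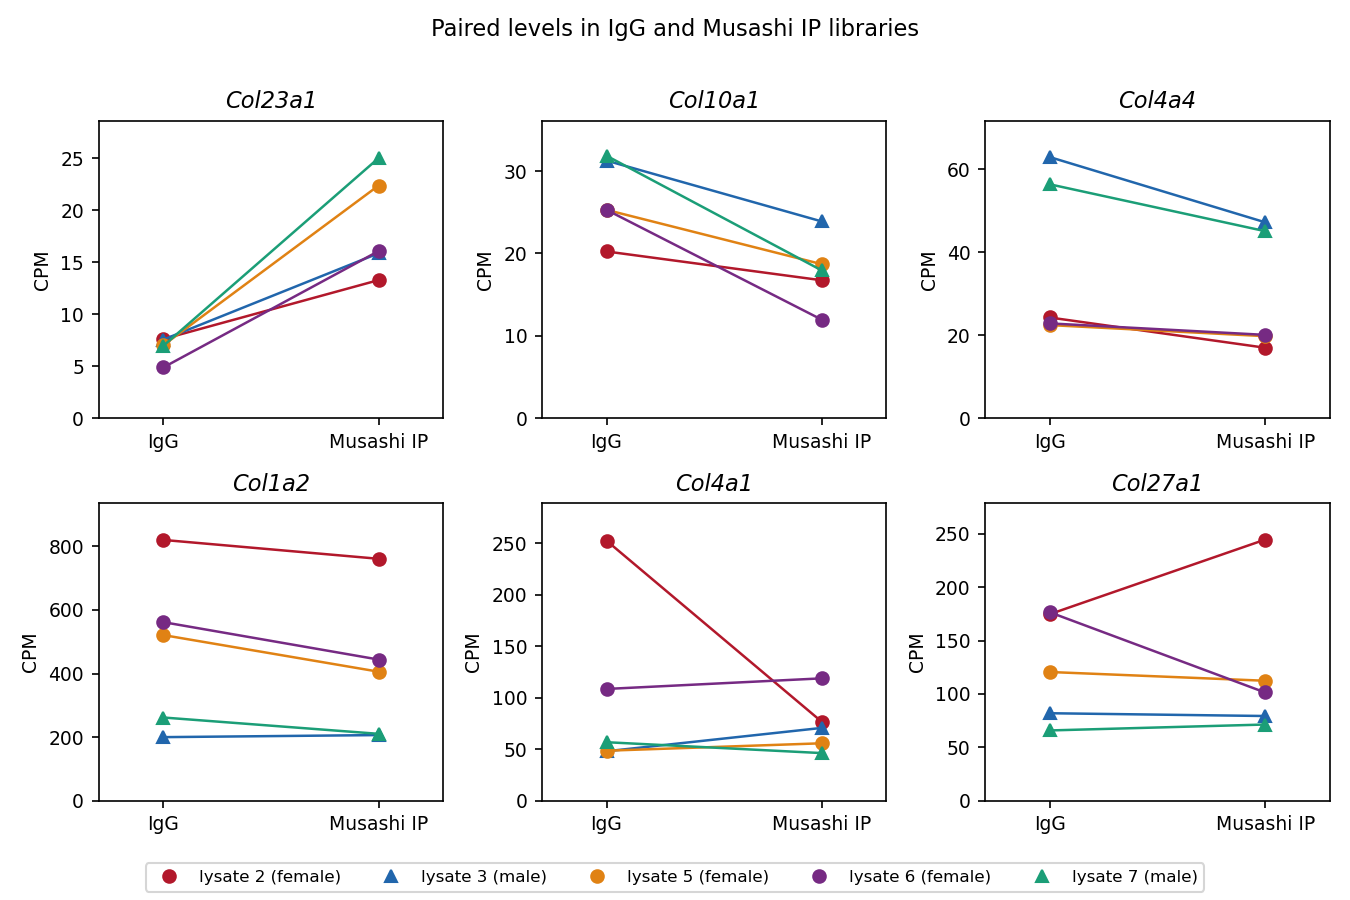
CPM (y axes, from 0) in the IgG and Musashi IP library of each lysate (lines join libraries of a lysate) for the 3 members that passed and 3 abundant members that did not. Col23a1 rises and Col10a1 and Col4a4 fall in every lysate, while Col4a1 falls from 253 to 76.5 CPM in lysate 2 and lies between 46.2 and 119 CPM in the Musashi IP libraries of the others.

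Markers of other cells differed between Musashi IP and IgG too. Beside the 18.5% of all tested genes that were higher and 8.4% lower, the lists were small. Of 6 stem, progenitor and folliculostellate markers 4 were higher in Musashi IP (summed level 41.6 to 89.1 CPM in IgG and 97.4 to 192 CPM in Musashi IP). Of the erythroid markers tested 3 of 4 were lower, and of the immune markers 2 of 6. Of the hormone-cell markers 2 of 9 were higher, Fshb at 2.28 and Nr5a1 at 1.37 on the log2 scale. The mural and fibroblast markers gave no call among 8 tested and the endothelial markers none among 8 (edgeR; 0 of either list at an unadjusted p under 0.05). The part of such markers in the fold changes of Col23a1, Col10a1 and Col4a4 was not tested.

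Motif count and recovery were set side by side, and their relation was not tested. Col23a1, Col8a2 and Col9a2, of the highest fold changes, had 5, 3 and 1 motifs. Col15a1, Col10a1 and Col14a1, of the lowest, had 1, 0 and 1. Col4a3 and Col25a1, with 12 motifs each, and Col22a1, with 9, had log2 fold changes of -0.26, 0.08 and 0.05, none past the threshold. Of the 11 tested members without a motif none was higher and 1, Col10a1, was lower, beside 1 higher and 2 lower of all 41. The shares over all tested genes without a motif were not computed. These are descriptions, since the motif letters in a 3' UTR are not binding sites.

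**Figure D3:**
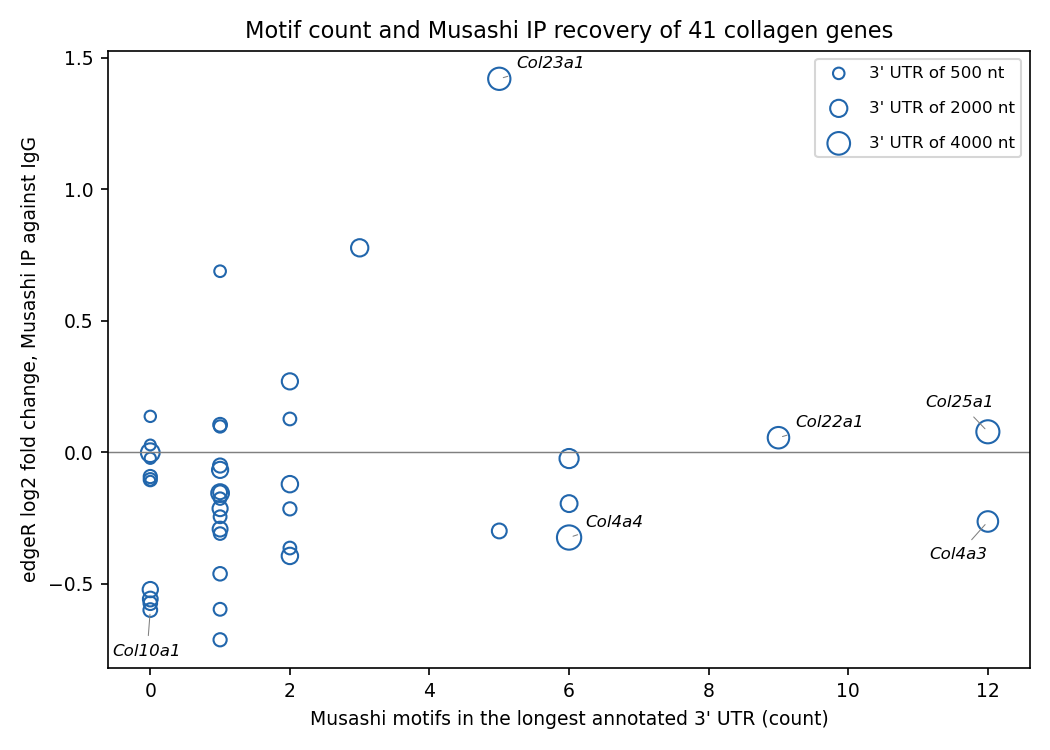
Number of Musashi motifs in the longest annotated 3' UTR (x axis) against the edgeR log2 fold change of Musashi IP to IgG (y axis) for the 41 tested collagen genes, with circle size growing with 3' UTR length. Col23a1 has 5 motifs and the highest fold change, and the 2 genes with 12 motifs lie at 0.08 and -0.26.

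The second pattern was the spread between lysates. Summed over the 44 genes, collagen RNA was at 2299, 1052, 1257, 1634 and 1090.0 CPM in IgG of lysates 2, 3, 5, 6 and 7 and at 1922, 1111, 1107, 1233 and 948.9 CPM in Musashi IP. The mean log2 ratio was -0.19 ± 0.176 (SD, n = 5), and lysate 3 was the only one above 0. As a share of protein-coding counts the mean log2 ratio was -0.467.

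The members were split by their ratios in lysates 2 and 3. In 14 of the 41, the log2 ratio was at most -0.5 in lysate 2 (-1.80 to -0.57) and above 0 in lysate 3 (0.14 to 1.05). These were Col1a1, Col3a1, Col5a2, Col5a3, Col4a1, Col4a2, Col4a5, Col4a6, Col6a1, Col6a2, Col12a1, Col14a1, Col15a1 and Col13a1, a group drawn after the values were seen. Col1a2, Col5a1, Col6a3 and Col18a1, which are also made by stromal or vessel-wall cells, lay outside it, at -0.11, -0.32, 0.03 and -0.15 in lysate 2. In the other 27 members lysate 2 ran from -0.79 to 1.09. Col8a1 and Col4a4, at -0.79 and -0.51 in lysate 2, were among these, since their lysate 3 ratios were -0.36 and -0.41. The share of all tested genes that meet both conditions of the group was not computed.

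Of the stromal markers, 7 of 9 mural and fibroblast and 8 of 8 endothelial genes had their lowest ratio in lysate 2 as well. All 9 mural and fibroblast markers and all 8 endothelial markers were lower in Musashi IP than in IgG in lysate 2, and all were higher in lysate 3. Their summed levels were 513.7 and 394 CPM in IgG and 146.2 and 77.5 CPM in Musashi IP of lysate 2. In lysate 3 they were 111.1 and 89.6 CPM in IgG and 227.7 and 171.5 CPM in Musashi IP. In lysates 5, 6 and 7 the mural and fibroblast sum was higher in Musashi IP, while Col1a1, Col3a1 and Col15a1 were lower in all 3. Much of that excess was Rgs5, a pericyte gene, which was at 22.4, 46.1 and 48.3 CPM in IgG and 85.5, 173 and 69.1 CPM in Musashi IP. The other 8 mural and fibroblast markers summed to 75.1, 82.6 and 105 CPM in IgG and 81.7, 115 and 106 CPM in Musashi IP, and in lysate 5, 5 of the 9 markers were lower. The endothelial sum was lower in Musashi IP in lysates 6 (160.9 and 148.5 CPM in IgG and Musashi IP) and 7 (108.4 and 80.7 CPM) and higher in lysate 5 (94.0 and 100.5 CPM). Each lysate was divided between the antibodies, so a ratio within a lysate compares RNA of the same cells. Between lysates, fewer cells of a type and less RNA per cell cannot be told apart in such bulk libraries. The markers' part in the collagen ratios was not tested. Without lysate 2 the members' median log2 fold change was -0.087 (all genes -0.018), with Col23a1 higher and Col10a1 lower. The log2 fold change without it was -0.35 ± 0.271 for Col15a1, 0.20 ± 0.15 for Col4a1, -0.26 ± 0.214 for Col4a2, -0.33 ± 0.218 for Col14a1 and -0.15 ± 0.246 for Col3a1. That of Col4a1 thus changed sign, and none of the 5 passed.

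**Figure D4:**
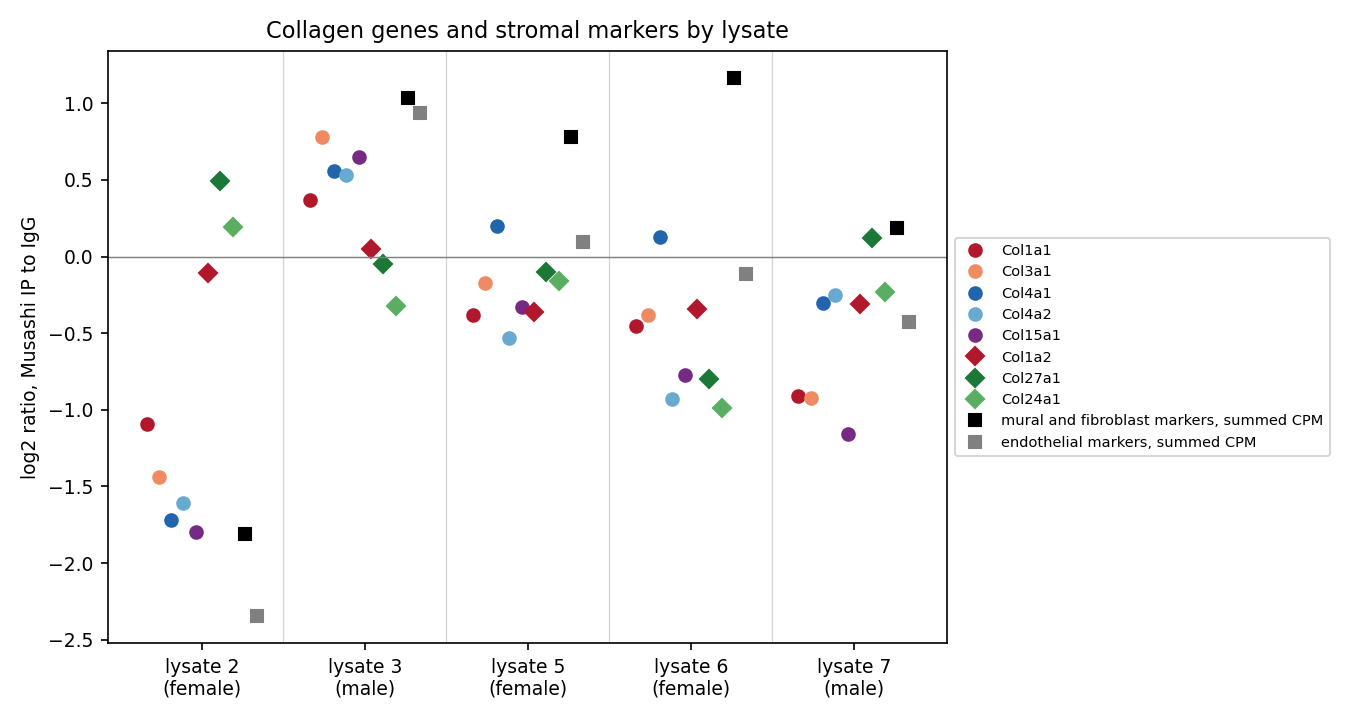
Log2 ratio of Musashi IP to IgG (y axis) in each lysate (x axis) for 5 collagen genes of that group (circles), 3 other abundant collagens (diamonds) and the summed CPM of 2 marker lists (squares). In lysate 2 these 5 and both marker sums lie at or below -1.09. Col1a2, Col27a1 and Col24a1, from outside the group, lie between -0.11 and 0.49 there. The group was drawn by its ratios in lysates 2 and 3, so the low lysate 2 values of its genes follow from that choice.

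Chains of a single protein were compared per kb of annotated exon, to set levels of different genes side by side. This length includes exons outside the coding transcripts, 41.5% of it for Col27a1, 10.9% for Col4a1 and 6.27% for Col24a1. The order of levels below thus depends on the annotation. In IgG, Col1a2 was the highest at 38.1 CPM per kb, ahead of Col4a1 at 13.8, Col24a1 at 9.82, Col27a1 at 9.52, Col4a2 at 8.89 and Col10a1 at 8.56. Col1a2 held 19.0% to 41.5% of all collagen CPM in IgG libraries and 18.6% to 39.6% in Musashi IP libraries.

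Col1a1, whose chain outnumbers that of Col1a2 in the type I trimer, was at only 2.08 CPM per kb, and the ratio of Col1a2 to Col1a1 per kb ran from 8.66 to 36.3 over the 10 libraries. It was 8.66 to 13.7 in the 4 male libraries and 16.4 to 36.3 in the 6 female ones. The annotation bears on this level: 55.5% of the exon length of Col1a2 is outside its coding transcripts, against 9.64% for Col1a1. A locus of the annotation class TEC, Gm43921, lies inside Col1a2 on the same strand and was itself at 42.6 ± 20.2 CPM in IgG and 26.1 ± 10.9 CPM in Musashi IP (SD, n = 5 each). It was lower in all 5 lysates, at -0.67 ± 0.127 (edgeR adjusted p = 0.00787). Unspliced RNA's part in the Col1a2 level was not tested.

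The other partner chains were closer. Col4a1 to Col4a2 had a median ratio per kb of 1.47 (1.40 to 3.34), Col4a3 to Col4a4 of 0.925 (0.566 to 1.33) and Col11a1 to Col11a2 of 1.54 (0.832 to 2.48). Col6a3 to Col6a1 ranged most among the rest, from 0.839 to 6.18. Col4a3 and Col4a4, which share a promoter region, differed in ratio by sex without overlap, at 1.13 to 1.33 in the 4 male libraries and 0.566 to 0.945 in the 6 female ones, a split seen after the values were known.

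Female and male lysates were compared within the IgG libraries, 3 against 2. Of 40 collagen genes tested, 3 were higher in females and 3 higher in males (edgeR adjusted p under 0.05), which is 7.5% in each direction. Of all 20987 genes tested, 2.66% were higher in females and 1.84% in males. In the Musashi IP libraries none of 41 was higher in females by edgeR (2 by DESeq2, and 9 members in either direction at an unadjusted p under 0.05) and 2 were higher in males, beside 1.9% and 0.946% of 21238 genes. The same lysates underlie the Musashi IP libraries, so the values there are a second reading of the same pools of animals and not independent evidence.

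Higher in females were Col1a2, Col16a1 and Col27a1. Col1a2 was at 820.5, 521 and 562 CPM in female IgG libraries (lysates 2, 5 and 6) and at 199.9 and 262 CPM in male ones (lysates 3 and 7). The sexes did not overlap, with a log2 difference of female minus male of 1.45 ± 0.231 (edgeR adjusted p = 0.0044). In Musashi IP, where they did not overlap either, it was 1.36 ± 0.34 (edgeR adjusted p = 0.0669), and 0.97 ± 0.263 without lysate 2 (edgeR adjusted p = 0.0496).

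Col16a1, a fibril-associated collagen, was at 85.7, 34.2 and 50.2 CPM in female IgG libraries and 16.2 and 16.5 CPM in male ones. In Musashi IP it was at 102, 32.7 and 28.6 CPM in females and 17.4 and 16.3 CPM in males. The male values were alike and the female ones spread, with lysate 2 highest. The log2 difference was 1.79 ± 0.333 in IgG (edgeR adjusted p = 0.011) and 1.71 ± 0.536 in Musashi IP (edgeR adjusted p = 0.141), where it was 0.81 ± 0.256 without lysate 2.

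Col27a1, whose values are given above, had a log2 difference of 1.09 ± 0.209 in IgG (edgeR adjusted p = 0.0134) and 1.03 ± 0.40 in Musashi IP (edgeR adjusted p = 0.237), or 0.45 ± 0.244 without lysate 2. All 3 female IgG libraries were above both male ones. The 3 calls in IgG were lost without IgG of lysate 3 and without that of lysate 7, fits in which a lone male library is assumed to vary as the females do.

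Higher in males were Col4a3, Col4a4 and Col19a1. Col4a3 was at 66.7 and 61.9 CPM in male IgG libraries and at 19.1, 19.1 and 13.6 CPM in female ones. The sexes were far apart, and the log2 difference of female minus male was -1.90 ± 0.198 (edgeR adjusted p = 0.000245). In Musashi IP it was -1.98 ± 0.257 (edgeR adjusted p = 0.00258), and all 14 settings in either group kept the call.

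Col4a4 was at 62.9 and 56.4 CPM in male IgG libraries and at 22.4 to 24.3 CPM in female ones. The log2 difference was -1.37 ± 0.171 (edgeR adjusted p = 0.000918) in IgG and -1.31 ± 0.212 (edgeR adjusted p = 0.00907) in Musashi IP. It passed in 14 of 14 settings in IgG and in 11 of 14 in Musashi IP, and was lost there without lysate 3, 5 or 7. Their partner chain on the X chromosome, Col4a5, had -0.37 ± 0.361 (edgeR adjusted p = 0.69).

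Col19a1, a rare fibril-associated collagen of muscle and brain, was at 11.3 and 9.70 CPM in male IgG libraries and at 3.91, 4.15 and 5.57 CPM in female ones. The sexes did not overlap in IgG or in Musashi IP, where the values were 7.92 and 9.91 CPM in males and 5.98, 3.24 and 3.53 CPM in females. The log2 difference was -1.21 ± 0.291 in IgG (edgeR adjusted p = 0.0383), lost without lysate 3, 5 or 7, and -1.08 ± 0.36 in Musashi IP (edgeR adjusted p = 0.163), or -1.45 ± 0.359 without lysate 2 (edgeR adjusted p = 0.0339).

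**Figure D5:**
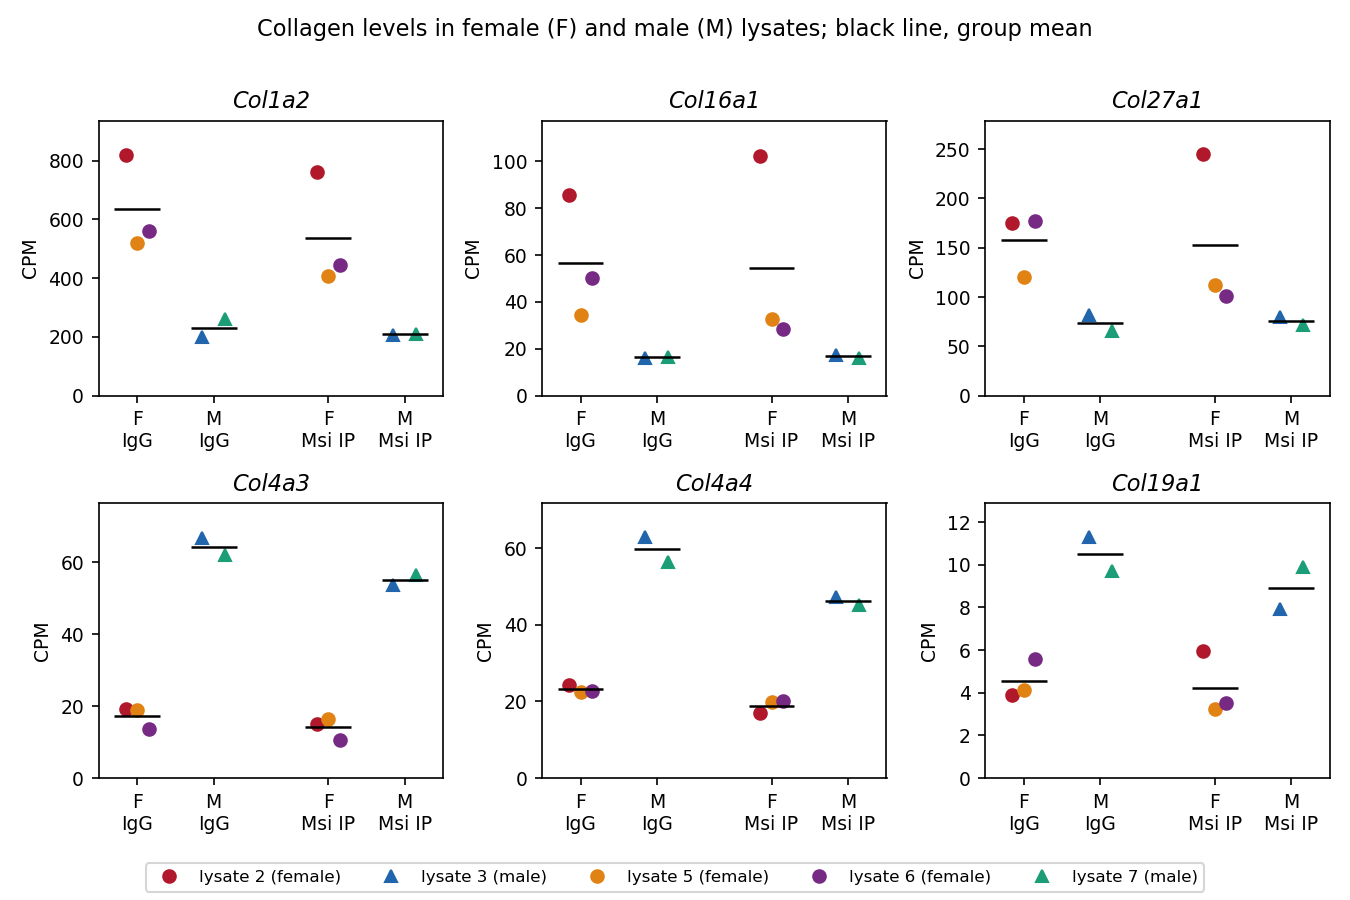
CPM (y axes, from 0) of the 6 collagen genes that differed between sexes in IgG, in female (F) and male (M) libraries of IgG and Musashi IP, with the group mean as a black line. In each panel, within IgG and within Musashi IP, the female and male points do not overlap. The genes were chosen by their difference in IgG, and the Musashi IP libraries come from the same lysates. The share of all genes without overlap was not computed. The male points of Col4a3 lie at 53.7 CPM or above while the female points lie at 19.1 CPM or below.

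Cell markers were read beside these differences. Of 9 tested hormone-cell markers 1 was higher in female IgG, prolactin (Prl) of the lactotropes, by 3.27 on the log2 scale (edgeR adjusted p = 0.00442). The other calls were higher in males, Fshb at -2.43 and Tshb at -1.42 (edgeR adjusted p = 0.00033 and 0.0025). No endothelial marker of 8 passed in edgeR (6 at an unadjusted p under 0.05), with differences of 0.92 to 1.37 in IgG. Their sums overlapped, at 94.0 to 394 CPM in females and 89.6 to 108 CPM in males, and without lysate 2 the differences were 0.084 to 0.74. In Musashi IP 6 of the 8 were below 0. Of the chondrocyte and bone list, Sox5 and Sox6 summed to 68 to 89 CPM in female IgG libraries and 130.0 to 146 CPM in male ones, while the other 6 genes together were at 6.61 to 10.1 CPM. The part of these in the collagen differences was not tested.

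The effect of the antibody itself was then compared between the sexes (female minus male). No collagen gene of 41 passed in edgeR, and none of the 20550 genes did (0%), while 2 members, Col4a2 and Col5a1, and 187 genes in all had an unadjusted p under 0.05. DESeq2 and limma-voom also called none of the 41. Col4a2 had a difference of -1.18 (-0.87 without lysate 2) and Col5a1 of -0.77 (-0.72) on the log2 scale. In Col5a1, Col18a1 and Col28a1 the 3 female ratios were below 0 and both male ratios above, at most 0.61 from 0. Some of these were near 0, such as -0.02 in lysate 6 for Col18a1 and for Col28a1. The share of all tested genes with such a split was not computed. The difference of Col23a1 was -0.07 and that of Col10a1 0.01.

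Genes that make, move, cross-link, bind and degrade collagen were examined as lists. Among 20 genes of collagen synthesis, 5 were higher in Musashi IP and none lower (25%, beside 18.5% of all tested genes and 25.7% of tested protein-coding genes; median log2 0.19), a share near that of protein-coding genes. P4hb, the beta subunit of prolyl 4-hydroxylase and a disulfide isomerase, was at 192 ± 79.7 CPM in IgG and 749 ± 473 CPM in Musashi IP, at 1.84 ± 0.307 on the log2 scale (edgeR adjusted p = 0.00525). P3h4, a partner of lysyl hydroxylase, was at 1.12 ± 0.206, Colgalt2, which adds galactose to collagen, at 0.93 ± 0.195, and Fkbp10, a collagen chaperone, at 0.85 ± 0.201. Fkbp14, a related isomerase, was at 0.40 ± 0.121 and was the fifth call. The catalytic subunits P4ha1, P4ha2 and P4ha3 did not pass, at 0.39, -0.16 and 0.21.

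Of 9 tested genes of procollagen export and processing none passed in edgeR, DESeq2 or limma-voom (2 at an unadjusted p under 0.05; median log2 -0.07), and the most abundant, Mia3 and Sec23a, were at 0.06 ± 0.0825 and -0.20 ± 0.0819. The shares in the next lists, too, were near or below the 25.7% of protein-coding genes that were higher. Of 6 cross-linking genes 1 passed (16.7%), Lox, the lysyl oxidase, at 0.93 ± 0.271. Of 9 tested collagen receptors Itgb1, the shared beta-1 integrin, and Ddr1, a collagen-activated kinase, were higher (22.2%) at 0.70 ± 0.212 and 0.43 ± 0.124. Among 8 genes of collagen degradation 2 were higher (25%) and 1 lower (12.5%). Timp2, an inhibitor of metalloproteinases, rose from 26.9 ± 13.6 to 159.8 ± 130.4 CPM (log2 2.36 ± 0.369), and Mmp14, a membrane collagenase, was higher at 0.66 ± 0.147. Mmp8, neutrophil collagenase, was lower at -0.40 ± 0.119.

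The collagens' neighbours in the matrix were read the same way. Of 15 other basement membrane genes 2 were lower, the laminin chain genes Lama1 at -0.45 ± 0.108 and Lama3 at -0.35 ± 0.108 (median log2 -0.33). That was 13.3% of this small list, beside 8.4% of all tested genes and 4.01% of tested protein-coding genes. None of 14 other interstitial matrix genes passed in edgeR, DESeq2 or limma-voom (1 at an unadjusted p under 0.05; median -0.21), and the most abundant, Tnxb and Sparc, were at -0.27 ± 0.131 and -0.18 ± 0.361.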

How the data were processed

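The authors deposited whole-number read counts per Ensembl gene for 10 libraries, not normalized. Per the submitters' processing notes, FastQC 0.11.8, Trimmomatic 0.39 and STAR 2.7.1a were used with GRCm39. The counting program, annotation, strand setting and handling of multiply mapped reads were not given in the sources used here. Thus genes that overlap others are uncertain, among them Col10a1, Col4a3, Col9a3 and Col1a2. Exons of Col4a1, Col4a2, Col5a1, Col6a4, Col6a6, Col7a1, Col15a1, Col20a1 and Col22a1 overlap those of other genes too. The kit marks strand, per the labels' protocols. Counts are not independent molecules, since no molecular identifiers are described.

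Symbols and sequences came from GENCODE M21 (GRCm38) by gene ID (94.1% of IDs matched). Low genes were dropped with filterByExpr, TMM factors scaled the libraries, and the quasi-likelihood test of edgeR 4.0.16 (R 4.3.3) was adjusted by Benjamini-Hochberg over all tested genes at 0.05. Lysate was a block for the antibody effect (4 residual degrees of freedom) and its female minus male difference (3). Sexes were compared within IgG and within Musashi IP without a block (3). A prior count of 2 went into lysate log2 ratios. Libraries of a lysate are pairs, since it was split, per the labels' protocols. Deviations of same-numbered libraries correlated at 0.523, 0.679, 0.602, 0.186 and 0.778 in lysates 2, 3, 5, 6 and 7. The highest correlations across different numbers were 0.415, 0.539, 0.251, 0.415 and 0.461, in the same order. For lysate 6 this was above its own value, so the counts do not bear out its pairing, which rests on the labels' protocols. Where nothing says that lysates of a sex are separate sets of animals beyond separate occasions of immunoprecipitation, p-values measure the spread between these pools.

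The members and lists were chosen with earlier results of these data known. Named with values per library were the 6 members of highest mean CPM, the 6 of largest fold change at 1 CPM or more, and those past the threshold. All other tested members were named with their fold change. Of each other list up to 4 genes past the threshold were named, or the 2 most abundant where none passed. One result among the other basement membrane genes is not reported here. Col1a1, Col3a1 and others singled out between lysates, Gm43921, Nt5dc1, Prl, Fshb, Tshb, Nr5a1, Rgs5, Sox5 and Sox6 were picked once their values were known. The test was checked on simulated counts. Alternatives covered scaling, tools (DESeq2 1.42.0, limma 3.58.1), filters, the block, left-out lysates, and transcript length and GC (mgcv 1.9.3).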

Additional observations from a re-analysis of the deposited data

Results flagged for a closer look

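In 7 of 125 sets of 5 values (CPM of each tested member in IgG and in Musashi IP, log2 ratios, and summed CPM) a single library lay far from the other 4. Chance flags about 1 in 20 sets, and 6 of the 7 were in lysate 2. In its IgG library Col15a1 was at 56.5 CPM (others 11 to 19.1), Col6a1 at 18.8 CPM (5.58 to 8.52) and Col4a2 at 139 CPM (29.6 to 60.4). In its Musashi IP library Col24a1 was at 98.5 CPM (49.6 to 55.9), Col16a1 at 102 CPM (16.3 to 32.7) and Col27a1 at 245 CPM (71.4 to 112). The last was Col23a1 in IgG of lysate 6, at 4.87 CPM (6.95 to 7.60).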

How the results depend on the processing

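Col23a1 was higher under each of the 21 alternatives to the test as reported. The number of collagen genes lower in Musashi IP (2 as reported) was 10 with library totals, 11 with protein-coding genes alone, 11 with length and GC correction and the replicate block, 7 with at least 2 CPM in 5 libraries, 4 with no low-count filter (2 higher) and 0 with no replicate block; leaving out a lysate gave 0 to 9. Over all genes tested, 3214 of 18379 were lower with at least 2 CPM in 5 libraries and 1519 of 38644 with no low-count filter. The cause was not tested. Over the other lists (11 higher, 3 lower) the number lower was 18, 22, 13, 13, 5 and 0, in the order of the collagen counts above. It was 5 with DESeq2. Without the replicate block 5 were higher. Leaving out a lysate gave 5 to 19 higher and 0 to 12 lower. Between sexes in IgG, 9 were female-higher with no filter, and leaving out a library gave 0 to 5 female-higher and 2 to 5 male-higher. In Musashi IP, DESeq2 gave 2 female-higher, no filter 3 and 4 in the 2 directions, and left-out libraries 0 to 2 and 1 to 4. The log2 ratio of summed collagen was -0.467 as a share of protein-coding counts and otherwise stayed within 1 SD of -0.194. The replicate block changed no other collagen call. The alternatives with library totals recomputed after filtering, alone or with a lysate left out, and with the newer quasi-likelihood method were added after seeing the data. They repeat the fit as reported or a fit without a lysate, in some cases with nearly the same result. Of 38 members not called between Musashi IP and IgG, 20 changed sign in some setting, so their directions are weak. Counts of members at a few CPM limit their precision.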
